A study of Rattus norvegicus with 14 samples.

Results

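Glycolysis and glycogen metabolism were followed in rat soleus through 34 genes chosen by name: glucose transporters and hexokinases, the enzymes from glucose to lactate, the enzymes that build and break down glycogen, and a few regulators. Of these 34 genes, 31 were represented by at least 1 probe set that carried their symbol alone, among 14217 genes represented in this way, and all 31 were bright enough to be tested among 11054 genes. The other 3 were Pkm, whose probe set is shared with the pseudogene Pkm-ps20, Gapdh, which was present only as control probe sets of the manufacturer, and Ppp1r3c, for which no probe set matched. The soleus is a slow postural muscle of the calf, and tenotomy cuts its tendon so that the muscle bears no load. The 14 arrays, 1 per muscle, came from 12 male Sprague Dawley rats and included 4 control muscles. The group labelled short-term immobilized, here short-term, held 6 tenotomized muscles (2 at 1 week, 2 at 2 weeks, 1 each at 3 and 4 weeks). The group labelled long-term immobilized, here long-term, held 4 tenotomized muscles (2 at 6 weeks, 1 each at 16 and 22 weeks). Every control was a left and every tenotomized muscle a right soleus. Rats 61 and 62 gave both a control and a 6-week muscle, whereas no rat gave both a control and a short-term muscle, so that rat cohort and tenotomy cannot be told apart in comparisons with the short-term group. Within a group every muscle came from a different rat. The labels record no age and no sham operation.

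Muscle takes up glucose through the transporters GLUT1 (Slc2a1) and the insulin- and contraction-responsive GLUT4 (Slc2a4), and hexokinase traps it as glucose phosphate. From there glucose either passes down glycolysis to pyruvate and lactate or, by way of phosphoglucomutase, UDP-glucose and glycogen synthase, is stored as glycogen, which phosphorylase and its activating kinase break down when the muscle contracts. Several steps are served by a form that dominates in muscle fibres (Slc2a4, Hk2, Pfkm, Pgam2, Eno3, Pygm) and by a form found widely in other cells (Slc2a1, Hk1, Pfkl and Pfkp, Pgam1, Eno1, Pygb).

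Values are probe set signals, linear intensities, that were shifted per array so that the median of the tested genes was common to all arrays. Signals of different probe sets are not on a common scale, so each gene is compared only with itself across muscles. Changes are differences of log2 signal with their standard error (SE) from a fit of all 14 arrays (6 short-term, 4 long-term, 4 control). They count as higher or lower at an adjusted p under 0.05 over all 11054 genes. Under this scaling the median gene stood at -0.12 in short-term against control muscle, at -0.01 in long-term against control and at 0.12 in long-term against short-term, so a change relative to the median gene lies 0.12 above the printed one in the first comparison and 0.12 below it in the last. Of the slow fibre genes, which mark a slow muscle such as the soleus, all 6 listed were measured. Their summed signals were 46556 to 57882 in controls, 41400 to 66721 in short-term and 52478 to 66133 in long-term muscle. No other muscle was measured, so these sums do not by themselves identify the soleus. Controls 3 and 4 stood apart from controls 1 and 2 in some genes of fast fibres, though not in Myh1, Myh4, Actn3 or Pvalb. Tnni2, the inhibitory troponin of fast fibres, read 4915, 6135, 375 and 140 in controls 1 to 4, whereas Myh1 read 5936, 6871, 7324 and 5359. The number of members called is therefore given without these 2 arrays as well.

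After 1 to 4 weeks of tenotomy, the glycogen genes Stbd1, Phka1, Pgm1, Ugp2, Pygm, Gys1 and Gbe1 fell, as did Slc2a4 and Pfkm, while Pygb, Hk1 and Pfkl rose. The glycogen genes Gyg1, Phkb and Phkg1 and the muscle forms Hk2, Pgam2, Eno3 and Aldoa did not pass. Against control, 12 of the 31 members were lower (26.5% of all genes tested were lower) and 3 were higher (17.9% of all genes), while 16 did not pass. The median change of the members was -0.36 beside -0.12 for all genes tested. The other members that fell were Pfkfb1, Ldhb and Gpi. Of the 31 members, 6 that fell and 1 that rose showed no overlap between the 2 groups of muscles, beside 19% and 11.8% of all genes. The share of members lower without overlap was thus close to that of all genes, and the share higher was smaller.

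**Figure D1:**
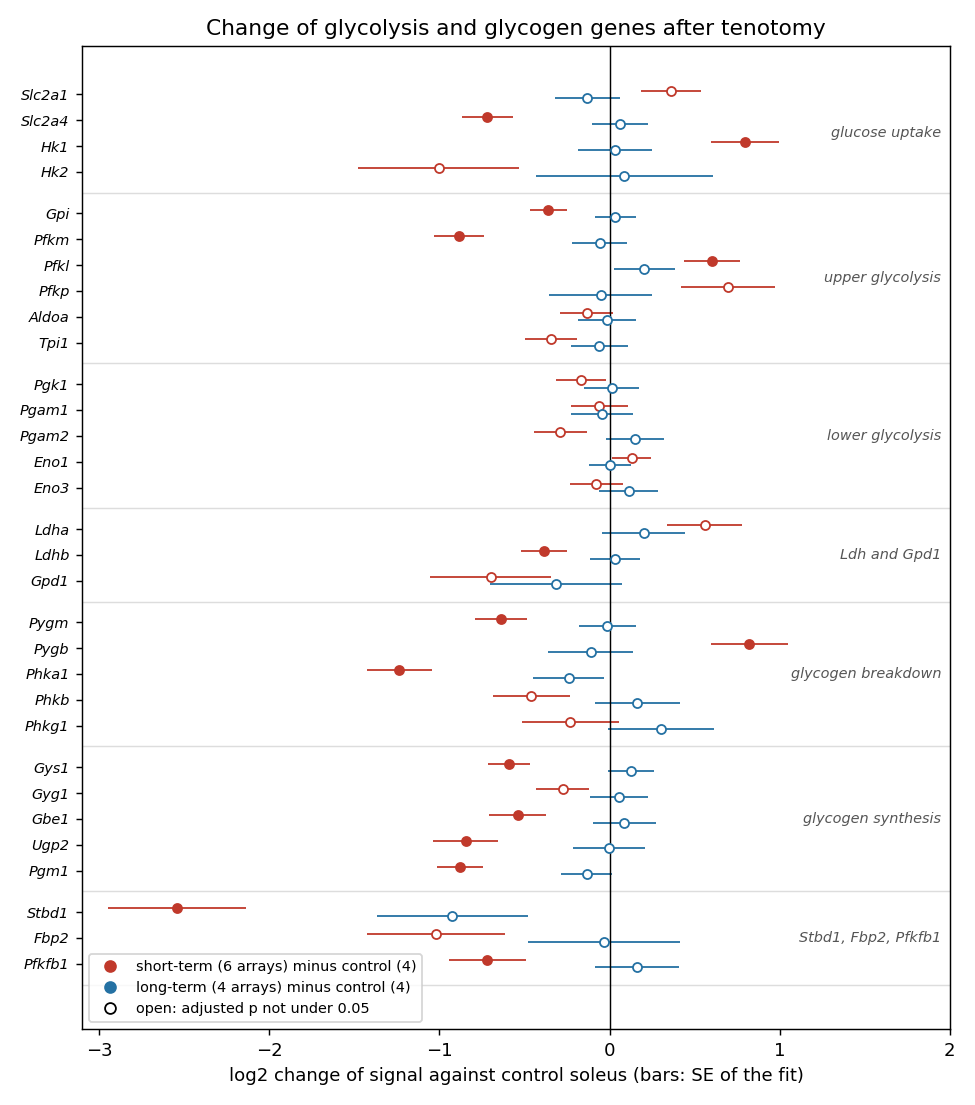
Log2 change of signal against the 4 control muscles for the 31 measured members, grouped by role, in short-term (red, 6 arrays) and long-term (blue, 4 arrays) muscle. Points are fitted changes, bars are their SE and filled points have an adjusted p under 0.05. Stbd1 lies lowest at -2.55, the red points of the 5 genes of lower glycolysis run from -0.29 (Pgam2) to 0.13 (Eno1), and no blue point is filled.

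These counts depended on how the arrays were brought to a common scale. Under the main scaling 2931 genes in all were lower and 1979 higher. On the deposited scale 20 members were lower and 0 higher, beside 3239 and 1106 of all genes. A common median over all probe sets gave 21 and 1 members, beside 4382 and 1358 genes, and a common 75th percentile gave 12 and 5, beside 2815 and 2051 genes. With a common 2% trimmed mean the members were 10 and 6, beside 2030 and 2528 genes. Centring arrays on their median deviation from the mean array, which puts the median gene at -0.00, gave 10 and 6 members beside 2247 and 2355 genes. Quantile normalization gave 11 and 5, beside 2478 and 1999 genes. With the trimmed mean and the median deviation more genes were thus higher than lower, while more members stayed lower than higher. In all 7 scalings 9 members were lower, beside 16.8% of all genes, and none was higher, beside 9.86% of all genes. The 9 were Slc2a4, Pfkm, Pygm, Phka1, Gys1, Ugp2, Pgm1, Stbd1 and Pfkfb1. With controls 3 and 4 left out, 10 members were lower and 1 was higher, and the calls of Pfkl, Pygb, Ldhb and Gbe1 were lost.

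**Figure D2:**
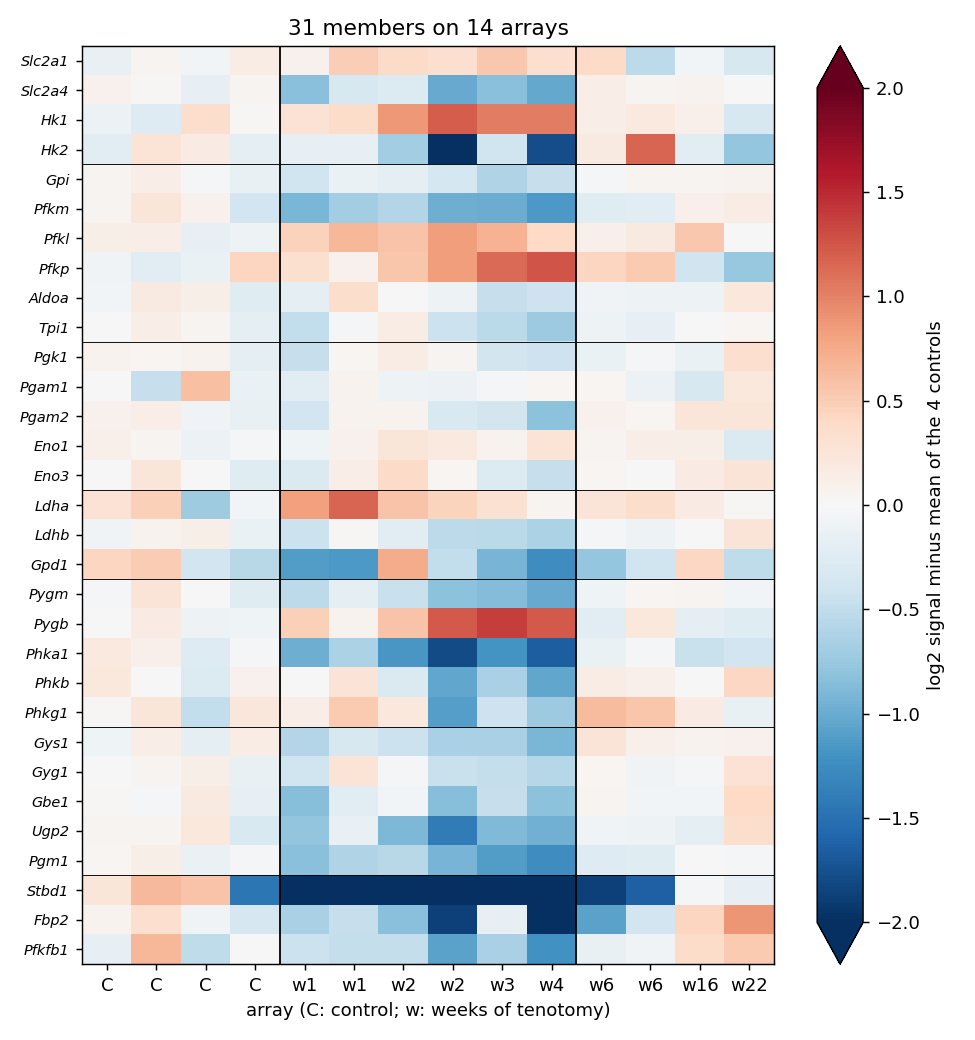
Log2 signal of the 31 members on each of the 14 arrays minus the mean of the 4 controls, in blue where lower and red where higher (values beyond 2 either way are drawn at the end of the scale). Columns are muscles by group and week, rows are grouped by role. The week 2 array with a Stbd1 signal of 380 and the week 3 and 4 arrays carry most of the deepest colours, and the long-term columns are mostly pale apart from Stbd1 at 6 weeks, Hk2 and Fbp2.

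Stbd1, a membrane-anchored protein that binds glycogen, showed the largest change of the members. Its signals in controls 1 to 4 were 2579, 3409, 3243 and 801, and the 6 short-term muscles ranged from 292 through a median of 373 to 493. Every short-term muscle lay below every control, although control 4, the left soleus of rat 61, was far below the other controls. The change was -2.55 (SE 0.41, adjusted p = 2.02e-04) and ran from -3.03 to -2.33 when each array was left out in turn. At 6 weeks the signals were still 602 and 703, and at 16 and 22 weeks they were 2134 and 1947. In rats 61 and 62 the tenotomized muscle differed from the same animal's control by -0.41 and -1.88.

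Of the 5 genes of glycogen synthesis 4 fell (26.5% of all genes did). Pgm1 encodes phosphoglucomutase, which interconverts the glucose phosphates used by glycolysis and glycogen synthesis. It read 2997, 3170, 2646 and 2859 in controls, 1231 to 1975 with a median of 1585 in short-term muscle, and 2435, 2472, 2892 and 2851 in long-term muscle. The short-term muscles lay below all others, with a change of -0.88 (SE 0.14, adjusted p = 1.71e-04). A further probe set of Pgm1 gave -0.95 (adjusted p = 0.00533). Ugp2, the enzyme that makes UDP-glucose, changed by -0.84 (SE 0.19, adjusted p = 0.0024), its short-term muscles ranging from 2158 to 5092 and its controls from 4570 to 6571. Gys1, the muscle form of glycogen synthase, ranged from 1116 to 1690 in short-term muscle and from 1829 to 2339 in controls, with no overlap, and changed by -0.59 (SE 0.12, adjusted p = 0.0014). Gbe1, the branching enzyme, ranged from 2368 to 4133 in short-term and from 3821 to 4865 in control muscle and changed by -0.54 (SE 0.17, adjusted p = 0.0171). Its call was lost without control 3 (adjusted p = 0.0593) and under quantile normalization. Gyg1, glycogenin, which primes new glycogen particles, ranged from 3673 to 6547 in short-term and from 4912 to 5874 in control muscle, and its change of -0.27 did not pass (SE 0.15, adjusted p = 0.162).

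Among the genes of glycogen breakdown, Phka1 showed the largest change. It encodes the muscle form of the alpha subunit of phosphorylase kinase, the enzyme that activates phosphorylase. Controls read 938, 874, 681 and 792, short-term muscles 237 to 524 with a median of 359, and long-term muscles 744, 807, 602 and 628. All short-term muscles lay below all controls and all long-term muscles, and the change against control was -1.24 (SE 0.19, adjusted p = 1.68e-04). A dimmer probe set of Phka1 gave -0.63, which did not pass (adjusted p = 0.13). The beta subunit gene Phkb (change -0.46, SE 0.23, adjusted p = 0.111) and the gene of the catalytic subunit Phkg1 (-0.23, SE 0.29, adjusted p = 0.535) did not pass. Phkg1 ranged from 55.8 to 173 in short-term and from 85.3 to 142 in control muscle. Phkb ranged from 499 to 1241 in short-term and from 844 to 1182 in control muscle, and its change reached -0.61 (adjusted p = 0.0198) when the week 1 muscle of 1241 was left out.

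The phosphorylase genes moved apart. Pygm, the muscle form of glycogen phosphorylase, read 4639, 5589, 4711 and 3988 in controls, 2335 to 4160 (median 2970) in short-term muscle and 4404, 4845, 4860 and 4523 in long-term muscle. It fell, by a change of -0.64 (SE 0.15, adjusted p = 0.00354), with the highest short-term muscle, of week 1, above the lowest control. Its other probe sets gave changes of -0.47 (adjusted p = 0.201) and 0.19 (adjusted p = 0.788), and the mean over all probe sets did not pass. Pygb, the form first described in brain, read 130, 146, 121 and 122 in controls, 135 to 336 (median 246) in short-term muscle and 110, 149, 114 and 110 in long-term muscle. It rose by 0.82 (SE 0.23, adjusted p = 0.00873), a call lost on the deposited scale and with the median over all probe sets. The muscles of weeks 3 and 4 and 1 muscle of week 2 were above 300, all other muscles below 200.

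Of the 2 glucose transporters, Slc2a4 fell and Slc2a1 did not pass. Slc2a4 read 3785, 3654, 3205 and 3728 in controls, 1769 to 2954 with a median of 2007 in short-term muscle and 3927, 3707, 3761 and 3588 in long-term muscle. The short-term muscles lay below all others, and the change against control was -0.72 (SE 0.15, adjusted p = 0.00142). A dimmer second probe set gave -0.28 (adjusted p = 0.46), and the mean over both did not pass. Slc2a1 read 74.4, 86, 79.5 and 91.7 in controls, 87.2 to 120 with a median of 106 in short-term muscle and 108, 57.6, 79.3 and 65.9 in long-term muscle, with a change of 0.36 that did not pass (SE 0.18, adjusted p = 0.107).

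Hk1, the hexokinase found in most cells, read 101, 92.4, 140 and 112 in controls, 134 to 255 with a median of 211 in short-term muscle and 120, 126, 118 and 88.4 in long-term muscle. It rose by 0.79 (SE 0.20, adjusted p = 0.00463), but only 1 short-term muscle, of week 1, lay below the highest control. The call was lost on the deposited scale and with the mean over all probe sets (adjusted p up to 0.271). Among the other probe sets of Hk1, a dim one gave -0.24 (adjusted p = 0.564) and the manufacturer's control probe set at the 3' end gave 1.03 (adjusted p = 0.0124). Hk2, the muscle hexokinase, read 102, 145, 134 and 104 in controls, 16.6 to 107 with a median of 82.5 in short-term muscle and 135, 269, 103 and 69.8 in long-term muscle. Its change of -1.01 did not pass (SE 0.47, adjusted p = 0.0969). A week 2 muscle of 16.6 and the week 4 muscle of 35.1 were the lowest of the group, and both week 1 muscles were at 107, within the range of the controls.

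In upper glycolysis the muscle form of phosphofructokinase fell and the liver form rose. Phosphofructokinase commits sugar to glycolysis. Pfkm read 3909, 4478, 4011 and 2904 in controls, 1698 to 2520 with a median of 1966 in short-term muscle and 3181, 3218, 4045 and 4187 in long-term muscle. Short-term muscles lay below all others, and the change against control was -0.89 (SE 0.15, adjusted p = 2.64e-04). A second probe set of Pfkm gave -0.82 (adjusted p = 0.0418) and a further dim one -0.61 (adjusted p = 0.264). Pfkl, the liver form, read 54.4, 55.2, 44.8 and 46.7 in controls, 66 to 89.4 with a median of 76.9 in short-term muscle and 53.8, 56.6, 72.4 and 50.3 in long-term muscle. It rose by 0.60 (SE 0.16, adjusted p = 0.00737) with no overlap, a call lost on the deposited scale and with the median over all probe sets.

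Pfkp, the platelet form, lay just outside the threshold. It read 105, 94.6, 101 and 150 in controls, 118 to 264 with a median of 180 in short-term muscle and 148, 160, 83.7 and 65.6 in long-term muscle, with a change of 0.70 (SE 0.28, adjusted p = 0.051). Gpi, the next enzyme after hexokinase, fell by a change of -0.36 (SE 0.11, adjusted p = 0.0149), 1404 to 1943 in short-term against 1932 to 2333 in control muscle. That call was lost without control 2 (adjusted p = 0.0526) and under quantile normalization, the trimmed mean and the scaling with the median gene at -0.00. Aldoa, the muscle aldolase, and Tpi1, triosephosphate isomerase, had changes of -0.13 (adjusted p = 0.501) and -0.35 (adjusted p = 0.0781). Aldoa ranged from 6042 to 10663 in short-term and from 7033 to 9475 in control muscle, and Tpi1 from 3634 to 6652 and from 5283 to 6584. The labels do not say whether spots as bright as those of Aldoa were saturated.

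None of the 5 measured genes of lower glycolysis, from phosphoglycerate kinase to enolase, passed. Pgk1, at 3485 to 5302 in short-term and 4235 to 5056 in control muscle, had a change of -0.17 (adjusted p = 0.369), but another of its probe sets, of a type that can also detect related transcripts, gave -0.70 (adjusted p = 1.80e-04), so that the gene is uncertain. Pgam1 read 1417, 1038, 2172 and 1307 in controls, 1223 to 1500 (median 1368) in short-term muscle and 1473, 1320, 1143 and 1654 in long-term muscle. Pgam2, the muscle form of phosphoglycerate mutase, read 3409, 3490, 3036 and 2886 in controls, 1801 to 3366 (median 2536) in short-term muscle and 3377, 3298, 3766 and 3766 in long-term muscle. The changes against control were -0.06 (SE 0.17, adjusted p = 0.79) for Pgam1 and -0.29 (SE 0.15, adjusted p = 0.14) for Pgam2, with overlap in both.

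The enolase genes likewise overlapped between groups. Eno1, the widely expressed form, read 1488, 1453, 1280 and 1361 in controls, 1319 to 1686 with a median of 1534 in short-term muscle and 1453, 1522, 1511 and 1142 in long-term muscle (change 0.13, SE 0.11, adjusted p = 0.366). Eno3, the muscle form, read 5792, 6877, 5896 and 4931 in controls, 4228 to 7630 with a median of 5410 in short-term muscle and 5968, 5803, 6561 and 6963 in long-term muscle (change -0.08, SE 0.16, adjusted p = 0.712). The highest and the lowest Eno3 signal of all 14 muscles were thus both found in short-term muscle.

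Lactate dehydrogenase, which interconverts pyruvate and lactate, is built from A subunits (Ldha, favoured in glycolytic tissue) and B subunits (Ldhb, favoured in oxidative tissue). Ldha read 2560, 2906, 1277 and 2022 in controls, 2173 to 4667 with a median of 2975 in short-term muscle and 2508, 2668, 2358 and 2120 in long-term muscle. Its change of 0.56 lay just outside the threshold (SE 0.22, adjusted p = 0.0525). Ldhb read 7427, 8174, 8472 and 7099 in controls, 5022 to 7929 with a median of 5597 in short-term muscle and 7623, 7270, 7757 and 9290 in long-term muscle. It fell by a change of -0.39 (SE 0.13, adjusted p = 0.0287). The Ldhb call was lost without any of short-term 4, 5 or 6 or control 2 or 3 (adjusted p up to 0.088), and under the trimmed mean and the scaling with the median gene at -0.00.

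Among the remaining members, Pfkfb1, which makes and removes the fructose bisphosphate that activates phosphofructokinase, fell. Controls read 341, 607, 268 and 380, short-term muscles 164 to 282 with a median of 259, and long-term muscles 343, 362, 489 and 546. The change against control was -0.72 (SE 0.23, adjusted p = 0.0173) and did not pass without control 2, the highest control (-0.49, adjusted p = 0.0792). Fbp2, the muscle form of fructose bisphosphatase, which runs against phosphofructokinase, ranged from 20.9 to 82 in short-term and from 72.1 to 116 in control muscle, and its change of -1.02 lay just outside the threshold (SE 0.41, adjusted p = 0.0523). Gpd1, the cytosolic glycerol phosphate dehydrogenase, ranged from 179 to 708 in short-term and from 290 to 602 in control muscle and did not pass, at -0.70 (SE 0.36, adjusted p = 0.123). A week 2 muscle at 708 lay above the other 5 short-term muscles, and without it the adjusted p of Gpd1 was 0.00837. A dim second probe set of Gpd1, at the floor of 9.71 in every control, went the other way and did not pass (0.78, adjusted p = 0.194).

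Rats gave both legs only at 6 weeks, and a fit with the rat as a replicate block, which uses these shared animals (correlation within rat 0.487), left all 15 calls of the short-term comparison in place. It added Pfkp (0.82, adjusted p = 0.0198), Ldha (0.58, adjusted p = 0.0383) and Fbp2 (-1.19, adjusted p = 0.0209), so that 5 members were higher.

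Outside the 31 members, the probe set shared by Pkm and Pkm-ps20 had geometric mean signals of 2784 in control, 2239 in short-term and 2757 in long-term muscle. Its change in short-term muscle was -0.31 (SE 0.11, adjusted p = 0.025), and it cannot be assigned to Pkm, the pyruvate kinase of muscle, alone. The manufacturer's control probe sets of Gapdh gave short-term changes of 0.02 at the 3' end, 0.34 in the middle and 0.63 at the 5' end (adjusted p = 0.913, 0.255 and 0.0767). The ratio of 3' to 5' signal of Gapdh is a measure of RNA quality. Its median was 2.08 in controls (1.38 to 2.78), 1.26 in short-term (1.16 to 1.61) and 1.48 in long-term muscle (1.38 to 2.78). The hexokinase control probe sets gave medians of 9.07 (5.99 to 11.7), 12.7 (3.89 to 46.0) and 15.3 (5.24 to 16.1) in that order, running the other way. Once scaled, their 5' signal was at the floor of 9.71 on all arrays, whereas the ratios use deposited signals. The part of RNA quality in the changes above was not tested.

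For the members with the largest changes without overlap, the stretch of 250 bases upstream of the gene start is shown, since these genes fell together, with Ldha for comparison as the member that was higher at 1 week. The sequences are those of RefSeq on build GRCr8, read 5' to 3' on the strand of the gene, and no window for Slc2a4 was used here. Capitals mark every match, on either strand, to any of 5 motifs. Hypoxia-inducible factors bind the core ACGTG. It lies within the E-box CACGTG. The myogenic factors bind the E-box CAGCTG. Oestrogen-related receptors bind AAGGTCA, and the last motif is that of MEF2.
Stbd1, chr14:15758175-15758424, minus strand: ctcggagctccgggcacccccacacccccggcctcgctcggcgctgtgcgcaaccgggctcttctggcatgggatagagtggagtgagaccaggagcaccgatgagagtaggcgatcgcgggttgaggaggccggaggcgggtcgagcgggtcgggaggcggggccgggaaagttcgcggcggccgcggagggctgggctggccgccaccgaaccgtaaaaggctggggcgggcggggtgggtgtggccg
Phka1, chrX:71778122-71778371, minus strand: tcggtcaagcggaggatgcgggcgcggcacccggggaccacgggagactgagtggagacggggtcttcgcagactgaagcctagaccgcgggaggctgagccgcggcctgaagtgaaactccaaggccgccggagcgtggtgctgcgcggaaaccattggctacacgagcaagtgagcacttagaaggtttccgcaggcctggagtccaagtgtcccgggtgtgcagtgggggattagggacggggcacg
Pfkm, chr7:131113849-131114098, plus strand: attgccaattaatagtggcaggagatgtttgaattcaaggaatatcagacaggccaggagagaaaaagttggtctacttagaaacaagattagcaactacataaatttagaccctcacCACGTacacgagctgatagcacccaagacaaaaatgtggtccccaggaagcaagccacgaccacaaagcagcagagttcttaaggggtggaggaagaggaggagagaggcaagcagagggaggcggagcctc
Pgm1, chr5:119710484-119710733, plus strand: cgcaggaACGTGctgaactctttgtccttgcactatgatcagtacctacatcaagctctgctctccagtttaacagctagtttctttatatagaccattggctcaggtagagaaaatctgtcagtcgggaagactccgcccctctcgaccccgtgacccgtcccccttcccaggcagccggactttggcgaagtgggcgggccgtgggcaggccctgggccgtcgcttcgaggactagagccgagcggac
Ldha, chr1:106507842-106508091, plus strand: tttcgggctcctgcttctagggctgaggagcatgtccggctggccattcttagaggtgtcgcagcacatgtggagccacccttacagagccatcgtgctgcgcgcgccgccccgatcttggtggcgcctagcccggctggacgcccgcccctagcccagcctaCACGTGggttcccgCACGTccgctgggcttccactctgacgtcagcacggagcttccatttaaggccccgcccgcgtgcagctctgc

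The windows of Stbd1 and Phka1 held none of the 5 motifs, those of Pfkm and Pgm1 held ACGTG, and that of Ldha held CACGTG and a further ACGTG. Of the 34 members 30 had a window, some of them several, 35 in all. ACGTG was found in 14 of the 35 windows (40%), beside 16.6% of all 33469 windows of the same length, and CACGTG in 3 (8.57%, beside 5.59%). CAGCTG was found in 5 (14.3%, beside 12%), the MEF2 motif in 1 (2.86%, beside 2.96%) and AAGGTCA in none (beside 3.99%). The 14 included genes that fell (Pfkm, Pgm1, Pygm and Gbe1), genes that rose (Hk1 and Pygb) and genes that did not pass or were not tested (Aldoa, Gapdh, Gyg1, Ldha, Pgam1, Phkg1, Ppp1r3c and Slc2a1). These matches describe letters in the windows and say nothing of what binds there.

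Differences between the muscle form and the other form of an enzyme were compared next, because a shift of a whole array cancels in them. For each of 8 pairs the difference in log2 signal was taken per array, and its change between groups was tested with exact 2-sided permutation tests, adjusted over 24 comparisons (8 pairs in 3 contrasts). The size of a difference has no meaning across probe sets, and only its change between groups is read. The muscle form of phosphofructokinase lost ground to both other forms in short-term muscle. Pfkm minus Pfkl was 6.24 ± 0.23 (SD, n = 4) in controls and 4.75 ± 0.24 (n = 6) in short-term muscle, a change of -1.49 with no overlap (exact permutation p = 0.00476, adjusted p = 0.0163). Pfkm minus Pfkp changed by -1.58, from 5.09 ± 0.56 to 3.51 ± 0.63, with 1 control, control 4, inside the short-term range (exact permutation p = 0.00952, adjusted p = 0.0286).

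The transporter and phosphorylase pairs moved the same way. Slc2a4 minus Slc2a1 was 5.44 ± 0.16 (SD) in controls and 4.36 ± 0.32 in short-term muscle, a change of -1.08 without overlap (exact permutation p = 0.00476, adjusted p = 0.0163). Pygm minus Pygb changed by -1.46, from 5.18 ± 0.12 to 3.73 ± 0.83, also without overlap (exact permutation p = 0.0143, adjusted p = 0.0343). Hk2 minus Hk1 had the widest spread: 0.12 ± 0.35 in controls and -1.68 ± 1.39 in short-term muscle, and its change of -1.80 did not pass after adjustment (exact permutation p = 0.0286, adjusted p = 0.0623), although the groups did not overlap. With the mean over all probe sets of a gene in place of the brightest, the changes of Slc2a4 minus Slc2a1 (-0.86), Pfkm minus Pfkp (-1.47) and Pygm minus Pygb (-1.13) no longer passed. Pygm minus Pygb did not pass without any 1 of the controls either (adjusted p = 0.0571 to 0.0635), nor Pfkm minus Pfkp without short-term 3, 4 or 5 or control 1, 2 or 3 (adjusted p = 0.0519 to 0.0857). Fewer arrays raise the smallest p that the test can give.

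The signals of the lactate dehydrogenase genes moved towards Ldha relative to Ldhb. Ldha minus Ldhb was -1.89 ± 0.58 (SD) in controls and -0.95 ± 0.21 in short-term muscle. Controls 1 to 4 stood at -1.54, -1.49, -2.73 and -1.81, so that controls 3 and 4, low in some fast fibre genes, were the lowest. The pair was not compared without controls 3 and 4 together, where the change would be smaller. The change of 0.94 separated the groups without overlap (exact permutation p = 0.00476, adjusted p = 0.0163), and it lay between 0.67 and 1.08 when each array was left out. By contrast the pairs of lower glycolysis did not pass: Pgam2 minus Pgam1 changed by -0.23 (exact permutation p = 0.414, adjusted p = 0.523) and Eno3 minus Eno1 by -0.21 (exact permutation p = 0.286, adjusted p = 0.429). Under quantile normalization, the only scaling tried that is not a shift of the array, Eno3 minus Eno1 passed (-0.36, adjusted p = 0.0416).

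**Figure D3:**
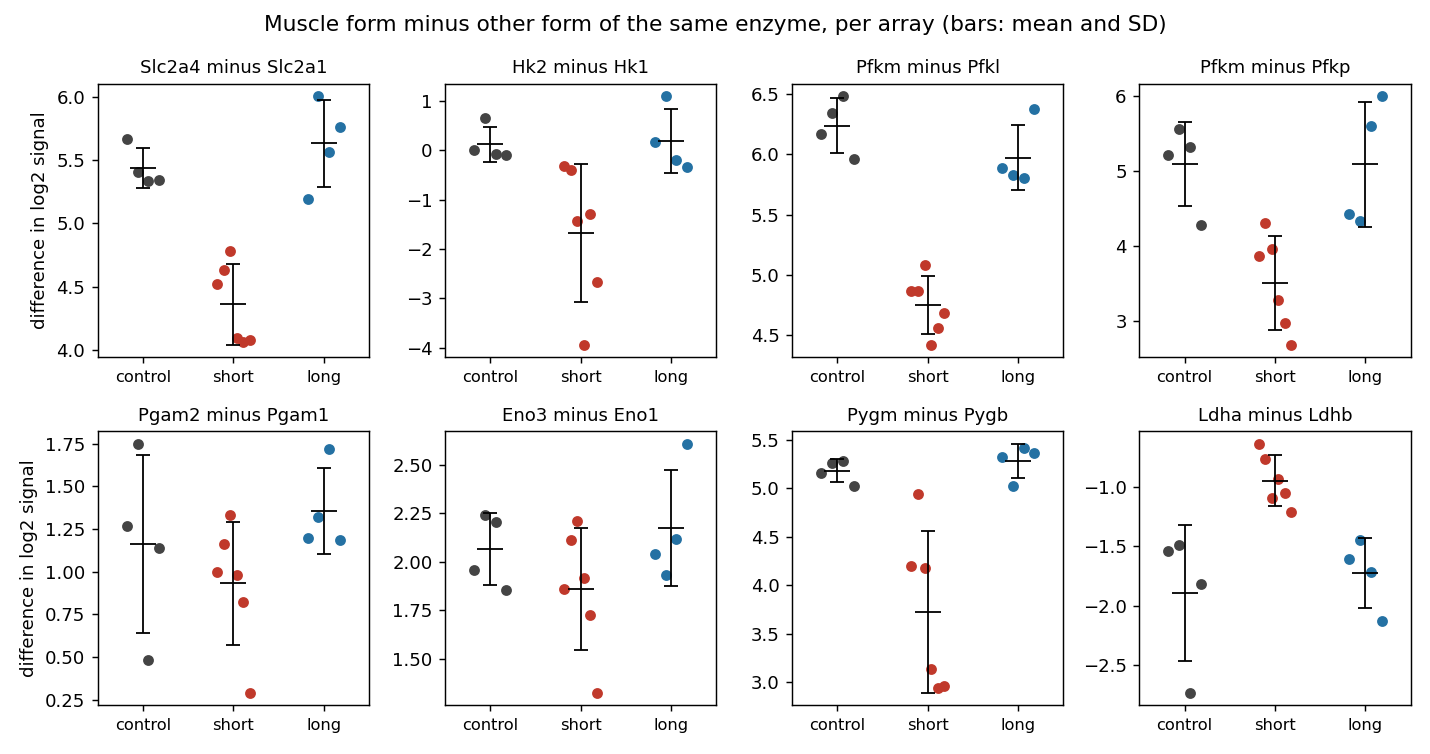
Difference in log2 signal between the muscle form and the other form of the same enzyme (Ldha minus Ldhb in the last panel), 1 point per array, for 4 control, 6 short-term and 4 long-term muscles. Long horizontal bars are group means and error bars the SD. In 5 panels (Slc2a4, Hk2, Pfkm minus Pfkl, Pygm, Ldha) no short-term point falls within the range of the controls, and in the panels for Pgam2 and Eno3 the groups overlap.

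After 6 to 22 weeks no change from control passed the threshold. None of the 31 members was called in long-term against control muscle, and none of the 11054 genes was (0% of all genes in either direction) by limma. At an unadjusted p under 0.05 there were 245 genes, none of them a member. In none of the 31 members did long-term and control muscles fail to overlap, beside 0.941% of all genes with long-term muscles all higher and 1.22% with all lower. Changes of the members ran from -0.92 (Stbd1) to 0.30 (Phkg1) with a median of 0.01. No member was called under any alternative setting of this comparison. The 8 isoform pairs did not pass in this comparison (smallest exact permutation p = 0.2, adjusted p = 0.32, for Pfkm minus Pfkl), and 4 arrays against 4 cannot give an exact p below 0.0286. Missing the threshold does not show that the groups were alike: for Hk2, at 69.8 to 269 in long-term muscle, the SE of the change was 0.52, and for Stbd1 0.44.

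Long-term against short-term muscle ran opposite to the first comparison, with which it shares the short-term arrays. In it 14 members were higher (26.2% of all genes) and 4 lower (17.4% of all genes), and the median change was 0.42 beside 0.12 for all genes. On the deposited scale the numbers were 19 and 1, with the median over all probe sets 22 and 2, and with the trimmed mean 10 and 5. The 2 groups did not overlap in 9 of those higher (17.8% of all genes) and 1 of those lower (11% of all genes). In all 7 scalings 10 members were higher (15.5% of all genes) and 1, Pygb, was lower (10.6% of all genes). The largest changes without overlap were those of Stbd1 (1.62, SE 0.41, adjusted p = 0.0047), Phka1 (1.00, SE 0.19, adjusted p = 8.43e-04), Pfkfb1 (0.88, SE 0.23, adjusted p = 0.00545), Pfkm (0.83, SE 0.15, adjusted p = 4.78e-04) and Slc2a4 (0.78, SE 0.15, adjusted p = 8.14e-04).

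The other members that were higher were Ugp2 (0.84), Pgm1 (0.74), Gys1 (0.72), Gbe1 (0.63), Pygm (0.62), Phkb (0.62), Pgam2 (0.44), Ldhb (0.42) and Gpi (0.39). Those lower were Pygb (-0.93), Hk1 (-0.76), Pfkp (-0.75) and Slc2a1 (-0.49). The calls of Slc2a1, Pfkp and Pgam2 were each lost without any of 5 single arrays, that of Phkb without any of 6, and only Pygb and Hk1 remained lower without short-term 5 or without long-term 4. The call of Ldhb was lost without long-term 4 too. With the mean over all probe sets those of Pfkm, Pygm and Hk1 were lost, and that of Hk1 also on the deposited scale. Gpi did not pass under the trimmed mean and quantile normalization, Ldhb under the trimmed mean, and Pgam2 and Phkb under these 2 and the median deviation. Slc2a1 and Pfkp did not pass on the deposited scale, with the median over all probe sets or under quantile normalization, nor Pfkp and Phkb without the filter. The same 5 isoform pairs passed as in the first comparison, in the opposite direction: Pfkm minus Pfkp by 1.58, Pygm minus Pygb by 1.56, Slc2a4 minus Slc2a1 by 1.27, Pfkm minus Pfkl by 1.23 and Ldha minus Ldhb by -0.78 (exact permutation p = 0.00476 to 0.0143, adjusted p = 0.0163 to 0.0343). Pygm minus Pygb did not pass without any 1 of the long-term arrays, nor Pfkm minus Pfkp without long-term 3 or 4 (adjusted p = 0.0571).

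The weeks within the groups were compared in a fit with a mean per time point, in which weeks 1, 2 and 6 hold 2 arrays each and weeks 3, 4, 16 and 22 are values without a test. At 1 week 5 members were lower (13.9% of all genes): Stbd1 (-2.53, adjusted p = 0.00505), Gpd1 (-1.13, adjusted p = 0.0462), Phka1 (-0.81, adjusted p = 0.0155), Pfkm (-0.80, adjusted p = 0.0126) and Pgm1 (-0.71, adjusted p = 0.0077). Gpd1 read 197 and 192 at 1 week, beside 574, 602, 325 and 290 in controls 1 to 4. Its fall was thus larger against controls 1 and 2 than against controls 3 and 4. Ldha was the 1 member higher at 1 week (9.45% of all genes), by 0.99 (adjusted p = 0.025). That call was lost without controls 3 and 4. Ldha signals were 3709 and 4667 at 1 week, above every other muscle. They were 3108 and 2843 at 2 weeks, 2585 at 3 weeks and 2173 at 4 weeks. No member was called at 1 week when short-term 1 was left out, and Ldha did not pass when short-term 2 was left out.

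At 2 weeks 11 members were lower (21.8% of all genes) and 4 higher (16.3% of all genes). Stbd1, Phka1, Pfkm and Pgm1 were lower as at 1 week, joined by Slc2a4, Pygm, Gys1, Hk2 (-1.77, adjusted p = 0.0161), Fbp2 (-1.35, adjusted p = 0.00893), Ugp2 (-1.15, adjusted p = 0.00285) and Phkb (-0.67, adjusted p = 0.0287). Those higher were Hk1 (1.04, adjusted p = 0.00328), Pygb (0.90, adjusted p = 0.0112), Pfkl (0.70, adjusted p = 0.0267) and Pfkp (0.69, adjusted p = 0.0277). The 2 muscles of week 2 were unlike each other: Hk2 read 73.9 and 16.6, Phka1 363 and 237, and Pygb 192 and 302, with short-term 4 the more changed each time. Without short-term 4, 4 members were lower and 1 was higher, and without control 3 there were 2 higher. Where a time point is left with 1 array, that array is assumed to vary like the rest. No member and no gene was called between weeks 1 and 2 (0% of all genes, limma), with 2 arrays in each. At an unadjusted p under 0.05 there were 1445 genes, 7 of them members. This does not show that the weeks were alike: from week 1 to week 2 the difference was -1.61 (SE 0.56) for Hk2 and 1.25 (SE 0.42) for Gpd1.

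At 6 weeks no member was called against control, nor was any gene (0% of all genes, limma), with 468 genes, 3 of them members, at an unadjusted p under 0.05. Without control 4 there was 1 member lower. From week 2 to week 6, 5 members were higher (12.2% of all genes): Hk2 (2.44), Phka1 (1.40), Ugp2 (1.06), Phkb (0.79) and Gys1 (0.72), and 2 lower (8.46% of all genes): Pygb (-0.91) and Hk1 (-0.87). A slope on log2 of the week over the 10 tenotomized muscles was positive for Stbd1 (0.58 per doubling of time, adjusted p = 0.0105) and Pfkm (0.24, adjusted p = 0.0341), beside 8.48% of all genes, and negative for Ldha (-0.19, adjusted p = 0.0333), beside 7.13% of all genes. These slopes rested on few arrays: without long-term 4 no member had a positive or negative slope, and over the arrays left out in turn 0 to 5 members had a positive and 0 to 1 a negative one.

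**Figure D4:**
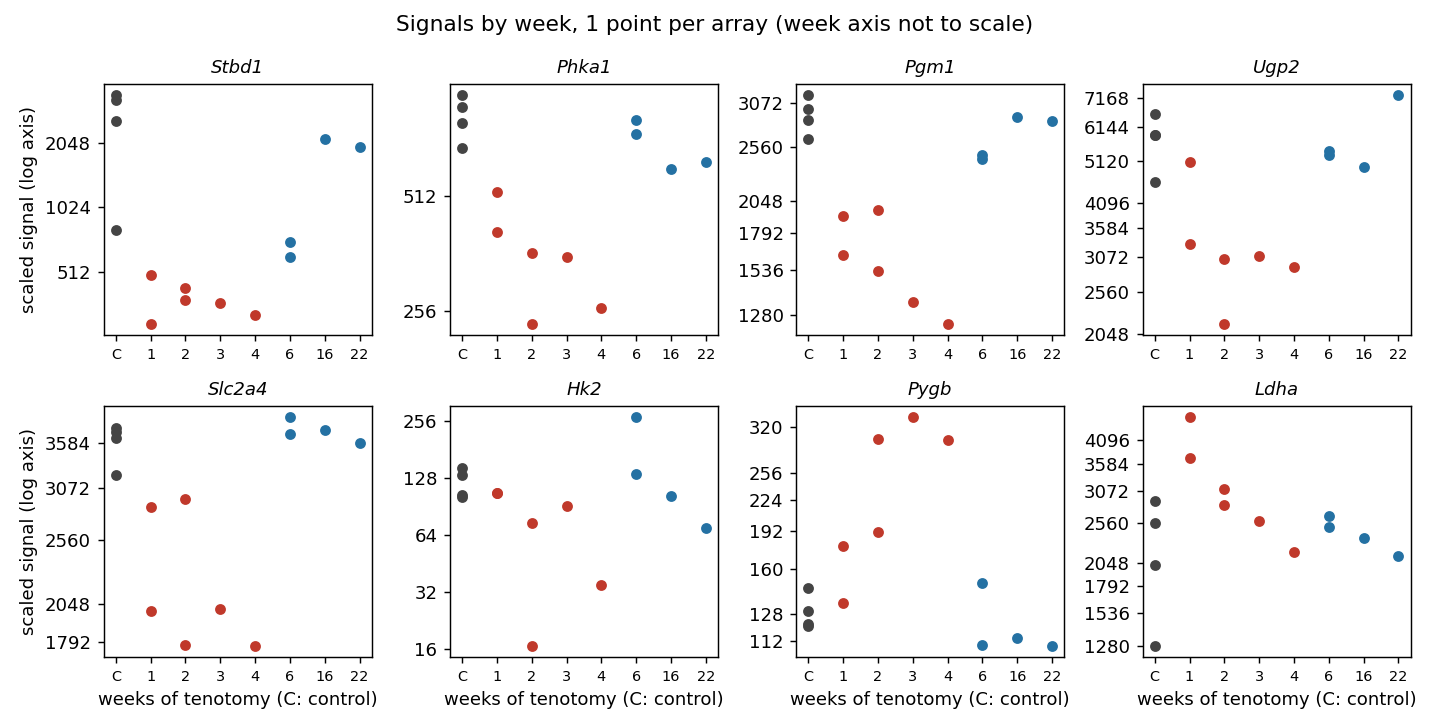
Scaled signal (log axis) of 8 members by weeks of tenotomy (C is control), 1 point per muscle, with control in grey, short-term in red and long-term in blue. The weeks are evenly spaced and not to scale. Stbd1 is still at 602 and 703 at 6 weeks, Ldha is highest at 1 week, and Pygb is above 300 in 1 muscle of week 2 and in weeks 3 and 4.

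Other genes of the pathway were taken as a list of 44, of which 34 had a probe set and 27 were tested. Against control, 9 were lower (26.5% of all genes) and 2 higher (17.9% of all genes) in short-term muscle, with a median of -0.37. None was called in long-term muscle, and 10 were higher (26.2% of all genes) and 3 lower (17.4% of all genes) in long-term against short-term muscle. The 3 with the largest changes concern lactate and pyruvate. Slc16a7, the monocarboxylate transporter MCT2, changed by -1.84 (SE 0.26, adjusted p = 8.1e-05), with signals of 192, 205, 411 and 258 in controls and 53.5 to 110 in short-term muscle. Slc16a1, the lactate transporter MCT1, changed by -1.67 (SE 0.22, adjusted p = 6.4e-05), from 2374 to 2982 in controls to 572 to 1511 in short-term muscle. Ldhd, the D-lactate dehydrogenase of mitochondria, changed by -1.54 (SE 0.19, adjusted p = 3.03e-05), from 198 to 280 in controls to 63.7 to 104 in short-term muscle. In each the groups did not overlap, and against short-term muscle the long-term muscles were higher by 1.75, 1.56 and 1.52. Among glycogen genes of this list, singled out after their values were seen, Ppp1r3a, the subunit that targets a phosphatase to glycogen in muscle, changed by -1.21 (adjusted p = 8.26e-04), and Pygl, the liver form of phosphorylase, rose by 1.13 (adjusted p = 6.39e-04).

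Markers of other cells moved with the short-term group (17.9% of all genes were higher). Of 12 macrophage markers 10 were higher, 6 without controls 3 and 4, their summed signal lying between 953 and 1879 in control, 3049 and 6496 in short-term and 529 and 2113 in long-term muscle. Of 8 fibroblast markers 7 were higher, with sums of 9486 to 13647, 29672 to 51145 and 3878 to 15498. Without controls 3 and 4 there were again 7. The 2 Schwann cell markers tested, of 5 listed, were higher, but neither was without controls 3 and 4. None of 5 markers shared by all muscle fibres, none of 6 slow fibre genes, none of 4 adipocyte and none of 3 red blood cell genes was called, and 1 of 6 endothelial genes was lower. Of 9 fast fibre genes 7 were higher and 1, Myh1, lower in short-term muscle, their sum ranging from 10271 to 40681 in controls. Of the 7, 3 were higher under all 7 scalings and 2 had no overlap, and without controls 3 and 4 only Myh4 was higher and Myh1 lower. No macrophage or fibroblast marker was at the floor on all arrays. The part of these cells and fibres in the changes of the members was not tested, and in whole muscle fewer cells of a type and less RNA per cell cannot be told apart.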

How the data were processed

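Probe set signals computed with MAS5 (per the submitters' processing notes) were deposited by the authors as linear intensities. The scaling target, software version and detection calls are not given in the sources used here. Per the labels, biotinylated cRNA was made from total RNA of homogenised muscle. Of 31099 probe sets, 57 manufacturer's controls were left out; 20826 of the others carried 1 gene symbol in the platform annotation, 436 several and 9780 none. Array medians ran from 29.8 to 49.3, and their number limits the precision.

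Signals were taken to log2, shifted per array to a common median over the tested genes, and raised to the pooled 25th percentile (9.71). The brightest probe set stood for each gene, which was tested if above the pooled 40th percentile (22.0) on at least 4 arrays. Groups, time points and slopes were fitted with limma 3.58.1 in R 4.3.3 (lmFit and eBayes with an intensity trend), with Benjamini-Hochberg adjustment over 11054 genes. For other probe sets of the members, p-values were adjusted with these probe sets added. Isoform pairs were compared with exact permutation tests. The test was checked on simulated data. Members, lists, pairs and scaling were chosen with earlier results of these data known. For isoform pairs and the 5 largest changes without overlap per comparison, signals are printed per array (short-term muscle by lowest, median and highest), and for the other members as changes and ranges. The 3 largest changes among other pathway genes are named. The same animal pairs 2 control with 2 long-term arrays: their deviations correlated at 0.41 (rat 61) and 0.22 (rat 62), and at -0.08 and -0.03 across the 2 rats. Motifs were searched in 250 bases upstream of RefSeq gene starts (GRCr8). Alternatives were 6 other scalings, no floor, no filter, the mean over probe sets, no intensity trend, the rat as a block, each array left out, and controls 3 and 4 left out together. The last, and the scaling on the median deviation, were chosen after seeing the data.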

Additional observations from a re-analysis of the deposited data

Results flagged for a closer look

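Of 93 sets of values (31 members in 3 groups), 3 held a muscle far from the rest of its group, where chance gives about 1 in 20. They were Aldoa and Eno1 in the 22-week muscle, with signals of 9625 (the other long-term muscles read 7767 to 7898) and 1142 (1453 to 1522), and Pygb in a 6-week muscle, the right soleus of rat 62, with 149 (the others 110 to 114).

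Long-term and short-term muscle differed in 18 members by a direct test (43.6% of all genes were called in that comparison), where cohort and time of tenotomy cannot be told apart. The differences were 1.62 for Stbd1, 1.00 for Phka1, 0.88 for Pfkfb1, 0.84 for Ugp2, 0.83 for Pfkm, 0.78 for Slc2a4, 0.74 for Pgm1, 0.72 for Gys1, 0.63 for Gbe1, 0.62 for both Pygm and Phkb, 0.44 for Pgam2, 0.42 for Ldhb and 0.39 for Gpi. They were -0.49 for Slc2a1, -0.75 for Pfkp, -0.76 for Hk1 and -0.93 for Pygb. They differed in 5 isoform pairs as well: 1.58 for Pfkm minus Pfkp, 1.56 for Pygm minus Pygb, 1.27 for Slc2a4 minus Slc2a1, 1.23 for Pfkm minus Pfkl and -0.78 for Ldha minus Ldhb.

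A change was also seen in 2 probe sets outside the 31 members: the manufacturer's control probe set at the 3' end of Hk1 (1.03, short-term against control) and the probe set shared by Pkm and its pseudogene Pkm-ps20 (-0.31). The control probe set in the middle of Hk1 went the other way (-0.45) and did not pass.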

How the results depend on the processing

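No called change of a member or pair turned its sign under any alternative. On the deposited scale 20 members were lower and 0 higher in short-term muscle, and 1 was lower in long-term against short-term muscle. At week 1 it gave 11 lower and 0 higher, at week 2 19 and 0, and for slopes 0 negative and 8 positive. With the median over all probe sets the numbers were 21 lower and 1 higher (short-term), 2 lower and 22 higher (long-term against short-term), 14 lower at week 1, 1 higher at week 2, and 0 negative and 11 positive slopes. The number higher in short-term muscle was 5 with the 75th percentile, 6 with the trimmed mean, 6 with the median deviation and 5 with quantile normalization. Quantile normalization moved Eno3 minus Eno1 past the threshold (-0.36 against control, 0.49 for long-term against short-term).

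Without the filter 0 members were higher at week 1 and 1 slope was positive. The mean over all probe sets gave 1 lower at week 1 and 1 positive slope, and took below the threshold Slc2a4 minus Slc2a1 (-0.86 in short-term muscle, 1.10 for long-term against it), Pfkm minus Pfkp (-1.47 and 1.22) and Pygm minus Pygb (-1.13 and 1.30). Without the intensity trend 2 were higher at week 1. With the rat as a replicate block 5 were higher in short-term muscle, and no call was lost. Without controls 3 and 4 together, 1 was higher in short-term muscle, 0 at week 1 and 2 at week 2, and 1 was lower at week 6. The causes of these differences were not tested.

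Leaving out each array in turn gave 9 to 16 lower and 3 to 4 higher members in short-term muscle, and 2 to 4 lower and 12 to 18 higher in long-term against short-term muscle. At week 1 the range was 0 to 7 lower and 0 to 1 higher, at week 2 4 to 14 and 1 to 4, and at week 6 0 to 1 lower. Slopes were 0 to 1 negative and 0 to 5 positive. Pair changes in short-term muscle ranged from -2.07 to -1.35 (Hk2 minus Hk1), -1.86 to -1.42 (Pfkm minus Pfkp) and -1.70 to -1.30 (Pygm minus Pygb). For long-term against short-term muscle they ranged from 1.40 to 2.13, 1.27 to 1.83 and 1.40 to 1.80 in the same order, and from 0.30 to 0.51 for Pgam2 minus Pgam1. Hk2 minus Hk1 passed without short-term 1 or 2. Detection calls were not used, so how far dim signals, such as 16.6 for Hk2 in a week 2 muscle, lie above background is not known.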
